A study of Daphnia magna with 80 samples.

Results

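A group of 153 genes of the water flea Daphnia magna was strongly female-biased while still giving counts in males, out of 26646 genes measured in whole animals. Members were chosen by their level in each sex, in CPM, that is, counts of a gene scaled to a common total of gene counts per library. A gene entered with a median of at least 5 CPM over 39 female libraries, a median of at least 0.1 CPM over 37 male libraries, and a female median at least 8 times the male median. A further 39 genes met the female level and the ratio but had a male median under 0.1 CPM, and 277 genes met the mirrored rule in favour of males. The sex difference of the members is therefore a description, and their course with age within each sex, which the rule did not use, is what was tested.

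All animals were of the 1 strain Bham2, kept under normal conditions in hard COMBO medium and fed green algae. Females were sampled at 15 ages from 10 to 80 days, in 10 groups of 3 libraries, 4 of 2 and 1 of 1, and males at 13 ages from 8 to 40 days, in 11 groups of 3 and 2 of 2. Samples were frozen whole with the brood pouch empty, so that no single tissue was measured and embryos in the pouch were not part of a female sample. The labels do not say whether libraries of a group came from separate cultures or animals, so the p-values refer to the spread among these libraries, part of which may be technical.

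Daphnia reproduce without fertilisation for most of the season. An adult female loads a new clutch of eggs with yolk in each moult cycle, broods the embryos in a pouch under her shell and releases them before the next moult. Sons develop from the same unfertilised eggs as daughters, under a juvenile hormone type signal and the male switch gene doublesex, so brothers and sisters of a clone carry the same genome and differ in which genes they use. The deposited files give the members by locus identifier only, none of the identifiers matched the RefSeq gene table at hand, and no member is assigned a function or a sequence here.

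Gene counts ranged from 2242215 to 27789716 per female library and from 1599627 to 33480868 per male library. Of these libraries 3 were shallow, the second 65-day and second 75-day female libraries and the third 33-day male library, and every other library held at least 8901627 counts. A block of 7 abundant genes, none of them members, took 1.03% to 66.5% of a female library and 1.12% to 75.4% of a male one. Levels from here on are CPM on library sizes scaled by the trimmed mean of M values (TMM). Exceptions are the medians of the rule and the levels in libraries that the rule leaves out. The rule leaves out 3 further libraries, titled as 1 female and 2 males, in which the members' share of counts was that of the other sex, and they enter no result here. By the ratio of a pair of spike-in RNAs, the libraries were divided into clusters of 48 and 28. The cut was put at the largest gap after 10% of libraries were set aside at each end. Such a cut gives 2 groups with any data, and whether the clusters are distinct was not tested.

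The members covered a wide range of levels in both sexes. Their female medians ran from 5.35 CPM to 12748 CPM, with a median over members of 47.5 CPM, and their male medians ran from 0.106 CPM to 388.2 CPM, with a median of 1.46 CPM. In females 44 members had a median of at least 100 CPM and 12 of at least 1000 CPM, whereas in males 24 members reached 10 CPM and 5 reached 100 CPM. The ratio of the medians was 8.04 at the lowest, 26.6 at the median and 963.3 at the highest. It lay between 8 and 16 for 56 members, between 16 and 32 for 27, between 32 and 64 for 22 and at 64 or above for 48.

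The thresholds cut through a continuum. The closest members had ratios of 8.04 and 8.06 and the closest genes left out had 7.91 and 7.83. The lowest female medians among members were 5.35 CPM and 5.65 CPM, against 4.93 CPM and 4.80 CPM just outside. The lowest male medians were 0.106 CPM and 0.111 CPM, against 0.0996 CPM and 0.0986 CPM for the nearest genes counted as nearly limited to females.

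**Figure D1:**
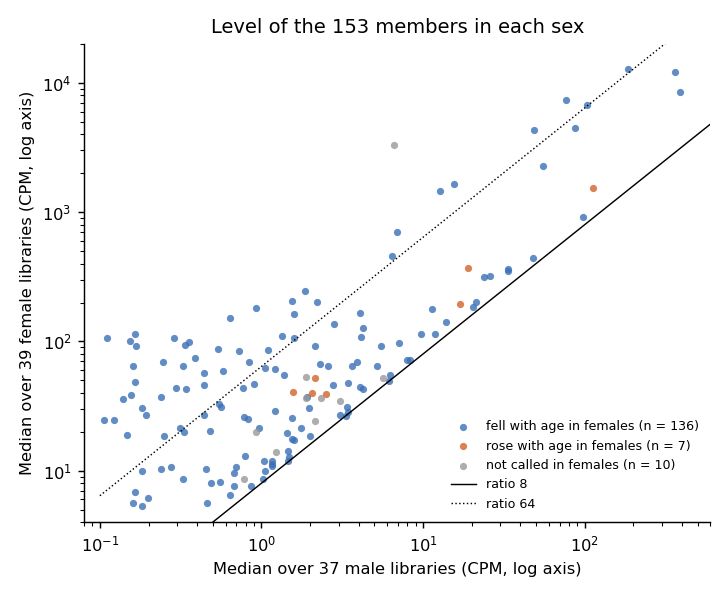
Median CPM of each of the 153 members over 37 male libraries (x, log axis) and 39 female libraries (y, log axis), coloured by the call on age in females, with lines at ratios of 8 and 64. Members spread over the whole range of both axes, and the 7 that rose with age in females lay below the line at 64.

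A few very abundant genes carried most of the members' RNA. The 10 most abundant members made up a median of 80.7% of the members' summed level in females and 63.7% in males. The highest female level was that of APZ42_001431, with a lowest, median and highest level of 648.3, 11717 and 30657 CPM in females and 39.1, 203.8 and 1869 CPM in males. APZ42_001711, second in females, stood at 2410, 10917 and 24631 CPM in females and 79.8, 402.7 and 1847 CPM in males. APZ42_034042 had the highest male median in the rule's CPM, and its levels were 106.8, 401.1 and 1453 CPM in males and 2906, 8226 and 19070 CPM in females. The sexes overlapped in the first of these genes and were apart in the other 2.

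At the other end stood the members with the largest ratio, APZ42_009908 at 963.3 and APZ42_026936 at 700.8. APZ42_009908 had 10.5, 105.5 and 330.0 CPM in females as lowest, median and highest level, and 0, 0.101 and 1.56 CPM in males, with 12 of 37 male libraries at 0. APZ42_026936 had 14.5, 112.4 and 419.9 CPM in females and 0, 0.174 and 1.55 CPM in males, with 8 male libraries at 0. No male library reached the lowest female library in either gene.

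Every female library stood above every male library for 61 members, 39.9%, against 0.364% of all genes with a count, and since the rule chose on this contrast nothing is read from the difference. The members held a lowest, median and highest share of 2.15%, 8.03% and 19.0% of the gene counts in females and of 0.0778%, 0.199% and 1.00% in males. Male libraries had counts for 94 to 153 of the members, with a median of 146, and 76 members had a count in every male library. At the lower end 33 members were at 0 in at least 5 male libraries and none was at 0 in more than 15.

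The counts in males were compared with those of the 39 genes nearly limited to females, which were chosen for a low male level. The summed level of those 39 genes had a male median of 3.13 CPM and a female median of 1265 CPM, the first being 0.248% of the second. For the members the sums were 2460 CPM and 78542 CPM, or 3.13%. Of the members 147 had a male median above 0.248% of their female median and 6 did not. These medians were those of the rule, whereas 0.248% came from summed TMM-scaled levels. The rule set a floor on the male median of members and kept the 39 genes under it, which fixed part of this outcome. The shares therefore cannot decide whether female RNA was carried over into male libraries, and carry-over was not tested in another way.

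The distance between the sexes was measured at each of 7 shared ages. The median over members of the log2 difference, female over male, was 5.08 at 10 days, 5.56 at 15 days, 5.29 at 20 days, 5.10 at 25 days, 4.73 at 30 days, 5.50 at 35 days and 5.12 at 40 days. At least 120 of the 153 members were at least 3 log2 units higher in females at each of these ages. The number of members no higher in females than in males was 1, 5, 0, 0, 0, 2 and 1 at these ages in turn. The 5 at 15 days belonged to a single set with a course of its own, described further on.

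With age, the members fell in females almost as a body. The mean log2 level over the 153 members lay between 6.70 and 6.84 in the libraries at 10 days and between 6.69 and 6.73 at 15 days. It was 6.24 to 6.47 at 45 days, 4.89 to 5.30 at 50 days, 4.26 and 4.77 at 65 days and 5.56 to 5.71 at 80 days. The 10-day libraries stood above every library from 20 days on. In a sample of whole animals, fewer cells that use these genes and less of their RNA per cell cannot be told apart.

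Over the 39 female libraries 136 of the 153 members fell with age, 88.9%, against 20.1% of all genes tested, and 7 rose, 4.58%, against 21.8% (quasi-likelihood test of edgeR, p adjusted by Benjamini-Hochberg over all genes, threshold 0.05). The other 10 passed the test in neither direction. The median slope over the members was −0.26 log2 units per 10 days, against 0.018 over all genes tested. Falling members had slopes from −0.54 to −0.075, with a median of −0.27, against a median of −0.13 over all genes that fell. All 39 genes nearly limited to females fell as well, with a median slope of −0.26. The fall was found in each range of the ratio: 47 of 56 members with ratios of 8 to 16 fell, 20 of 27 at 16 to 32, 22 of 22 at 32 to 64, and 47 of 48 at 64 or above.

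**Figure D2:**
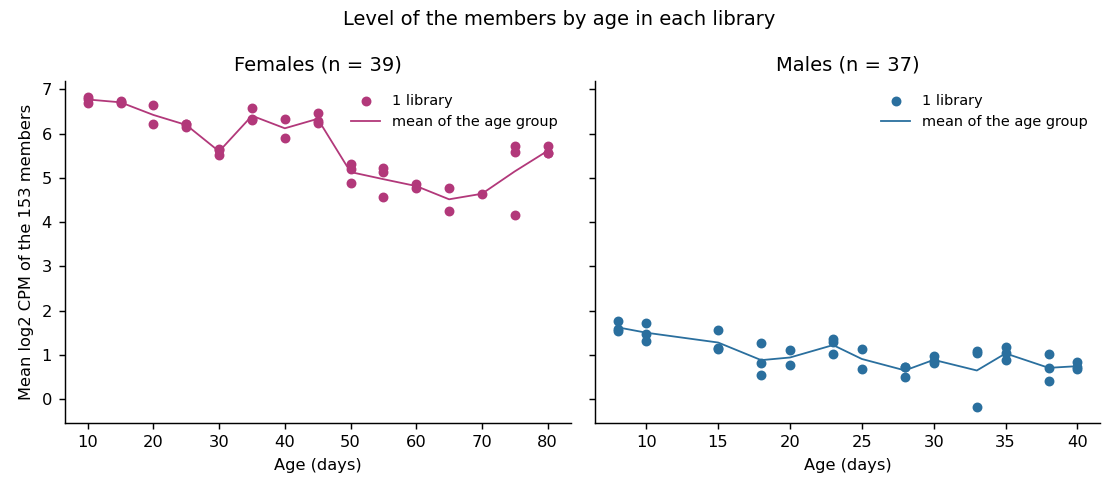
Mean log2 CPM of the 153 members in each library against age in days, with females (n = 39) and males (n = 37) in separate panels; points are libraries and lines join the means of the age groups. Females step down at 30 days, recover by 35 days and drop again from 45 to 50 days, and males are highest at 8 days.

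Libraries scaled on the spike-in RNA gave 139 falling members, against 54.3% of all genes, and 0 rising ones, against 2.45% (edgeR, with 2 members positive at an unadjusted p under 0.05), and moved the median slope of all genes by −0.15. The spike-in share would move against the amount of other RNA if each sample received the same amount of spike-in, which was not tested. This share was 0.325% to 0.492% at 10 days and 0.941% to 1.41% at 45 days. It did not rise steadily, with 0.318% and 0.692% at 65 days and 0.676% to 0.966% at 80 days. Relative to the median of all genes under that scaling, −0.13, the members' median of −0.41 was again lower. Within the larger spike-in cluster of 24 female libraries 132 members fell, against 16.9% of all genes, and 7 rose, against 17.1%. Within the smaller cluster of 15 libraries 1 fell, against 0.0407%, and 0 rose, against 0.39% (edgeR, with 1 at an unadjusted p under 0.05). That cluster held no female libraries of 10, 15, 40 or 60 to 75 days and 1 of 80 days. It thus lacked the age groups of highest and lowest mean level, and cluster and age cannot be told apart.

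The falls with the smallest p-values among well expressed members were those of APZ42_028735 and APZ42_028343. APZ42_028735 was at 259.6, 297.5 and 331.4 CPM in the 10-day females, at 72.5, 85.1 and 105.2 CPM at 30 days and at 35.0 to 37.4 CPM in the 3 libraries at 80 days, groups that did not overlap. Its slope was −0.47 ± 0.046 (SE) log2 units per 10 days over 39 libraries (edgeR, adjusted p = 9.99e-10). APZ42_028343 held its level longer, with 382.6, 509.7 and 539.7 CPM at 10 days and 345.5, 472.2 and 548.7 CPM at 45 days. It then stood at 113.2, 159.0 and 245.8 CPM at 50 days and 98.4, 108.8 and 192.8 CPM at 80 days, below every 45-day library, with a slope of −0.40 ± 0.041 (edgeR, adjusted p = 2.88e-09).

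The 7 rising members had slopes of 0.19 to 0.43. APZ42_033287 was at 332.2, 401.5 and 500.8 CPM at 10 days and at 1389, 1917 and 2040 CPM at 80 days, without overlap. At 15 days it already stood at 1210, 1393 and 1516 CPM, a range that overlapped that of 80 days. Its slope was 0.19 ± 0.046 (edgeR, adjusted p = 0.00131). APZ42_015453 was at 221.9, 284.6 and 364.1 CPM at 10 days and at 416.3, 443.7 and 557.7 CPM at 80 days, also without overlap. It was lower at 15 days, at 81.9, 99.0 and 148.3 CPM, and its slope was 0.19 ± 0.046 (edgeR, adjusted p = 9.78e-04). With library sizes from the spike-in RNA neither passed (edgeR, adjusted p = 0.461 and 0.649). The remaining 5 rising members formed the set described further on.

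The decline was stepped rather than even. The median change of the members from the 10-day females was −0.06 at 15 days, −0.50 at 20 days, −1.03 at 25 days and −1.77 at 30 days, then −0.36 at 35 days, −0.76 at 40 days and −0.64 at 45 days. From 50 days on it was −2.15, −2.04, −2.35, −2.93, −2.73, −1.70 and −1.60 at 50, 55, 60, 65, 70, 75 and 80 days. The age group of highest mean level was 10 days for 68 members and 15 days for 50, and that of lowest level was 65 days for 61, 70 days for 34 and 75 days for 28. The 75-day group was the most scattered, with libraries at 5.71, 5.58 and 4.15 as mean log2 level, the last being the shallow second library.

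Because the step between 45 and 50 days stood out, it was tested after the values had been seen. The mean log2 level over members was 5.90 to 6.47 in the 5 libraries at 40 and 45 days and 4.56 to 5.30 in the 6 libraries at 50 and 55 days, with a gap between them. Of the members 118 were lower at 50 and 55 days, 77.1%, against 9.56% of all genes tested, and 1 was higher, 0.654%, against 3.5% (edgeR, adjusted p under 0.05). The median difference was −1.34 over members and 0.067 over all genes, and members made up 7.77% of all genes called lower. APZ42_001431 showed the step at 21252, 21266 and 23726 CPM at 45 days and 7593, 7902 and 10881 CPM at 50 days.

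The spike-in clusters moved with this step, as 1 of the 5 earlier and 5 of the 6 later libraries lay in the smaller cluster. Inside the smaller cluster the earlier library had a mean log2 level of 6.28 and the later ones 4.56 to 5.30. Inside the larger cluster the earlier libraries had 5.90 to 6.47 and the later one 5.20. Leaving out 1 of the 11 libraries at a time gave 105 to 117 members called lower.

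The dip at 30 days was smaller and less secure. Mean log2 levels were 6.15 to 6.22 at 25 days, 5.51 to 5.66 at 30 days and 6.30 to 6.57 at 35 days, so that the 30-day libraries lay below all 6 neighbours. In a contrast also chosen after the values had been seen, 17 members were lower at 30 days than at 25 and 35 days, 11.1%, against 0.209% of all genes tested, and 0 were higher, against 1.4% (edgeR, adjusted p under 0.05). The 17 were 51.5% of all 33 genes called lower, and 131 members had estimates below 0. At an unadjusted p under 0.05 the number of members was 113. DESeq2 called 87 lower, against 2.33% of all genes, whereas edgeR called 3 with a replicate block, against 0.0364%, and 4 with spike-in library sizes, against 0.0569%. Omission of the first 30-day library left 1, of the second 2 and of the third 3, while omission of the first or second 25-day library left 11 or 6 and of the first 35-day library 9 and of the third 8. The 3 age contrasts in females share libraries.

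Fits on part of the age range gave fewer calls. Over 10 to 40 days 35 members fell, against 2.77% of all genes, and 1 rose, against 4.32%, with 136 estimates below 0 and a median slope of −0.28. Over 45 to 80 days edgeR called 0 members falling and 0 rising, against 0% and 0.00618% of all genes, while 12 had a negative slope at an unadjusted p under 0.05. The median slope there was −0.13, with 130 estimates below 0, among them those of 118 of the 136 falling members and, with the sign turned, of 6 of the 7 rising ones.

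**Figure D3:**
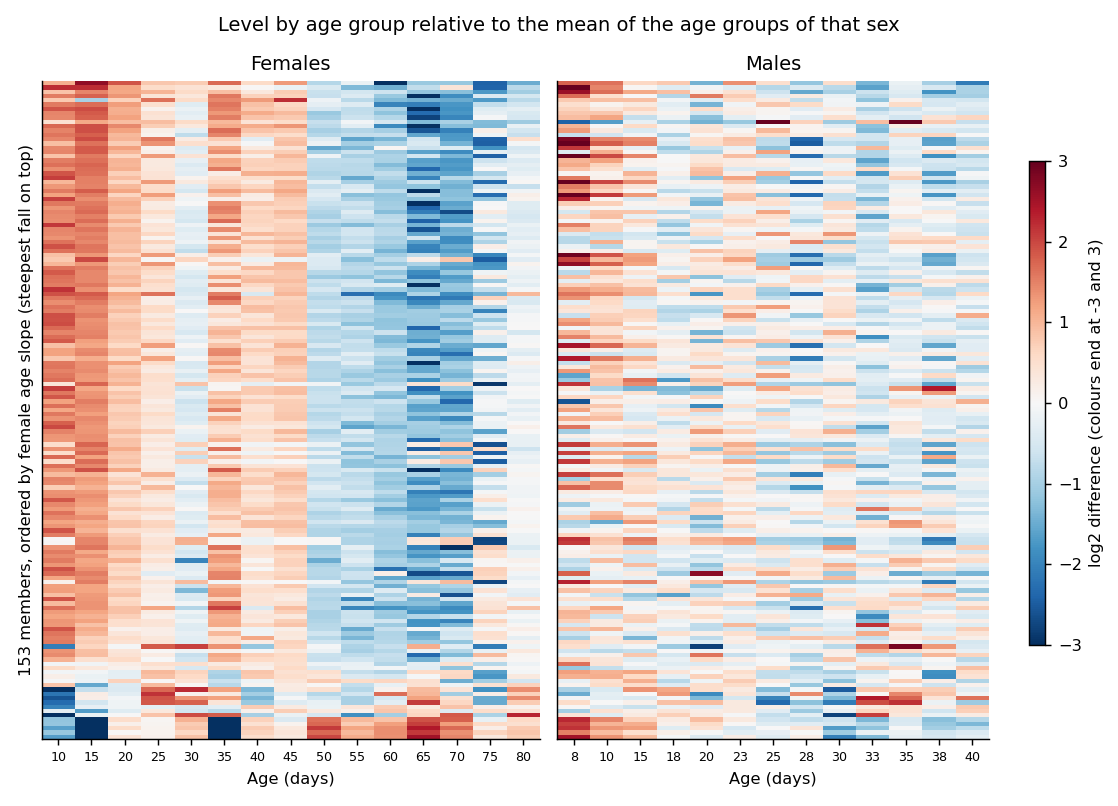
Mean log2 level of each of the 153 members in each age group (columns, age in days) relative to the mean of that member's age groups in the same sex; rows are ordered by female age slope, and colours end at −3 and 3. In females most rows turn from high to low between 45 and 50 days and the bottom rows run the other way, whereas in males the youngest ages stand out in part of the rows.

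In females the members shared much of their course. As a description over the same 39 libraries, the correlation of a member with the median profile of the others was −0.74 at the lowest, 0.87 at the median and 0.99 at the highest, and it reached 0.7 for 122 members, all of which fell. The remaining members comprised 16 between 0 and 0.7 and 15 below 0, of which 7 rose and 8 passed in neither direction. Since the median profile itself fell, a high correlation with it goes with a fall. Genes outside the members were not compared with this profile, so the shared course is not shown to be particular to the members. In males the same correlation had a median of 0.35 and reached 0.7 for 24 members. Over the 24 members with a male median of at least 10 CPM the median correlation of pairs was 0.76 in males and 0.67 in females, against 0.11 and 0.71 over all pairs of members, and the part of low counts in the male values was not tested. The spread between libraries of the same age had a median SD of 0.52 log2 units over members in females, against 0.50 over all genes tested, and of 0.89 in males, against 0.44. The male value covers all 153 members, including 21 with too few counts for the male test, which the 0.44 leaves out. Over the 24 members with a male median of at least 10 CPM it was 0.76.

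Males began with a higher level of these genes and lost part of it early. The members took 0.420% to 1.00% of gene counts at 8 days, 0.600% to 1.00% at 10 days, 0.0778% to 0.105% at 28 days and 0.184% to 0.193% at 40 days. The mean log2 level was 1.53 to 1.76 at 8 days and 0.678 to 0.840 at 40 days, without overlap. The age group of highest mean level was 8 days for 60 members.

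Of the 153 members 132 had counts enough for the test in males and 21 had not. With age 63 of them fell, 47.7%, against 17.5% of all genes tested, and 9 rose, 6.82%, against 15.2%, while 60 passed in neither direction (edgeR, adjusted p under 0.05). Without a filter on low counts 63 fell and 9 rose among all 153, but the shares of all genes in that fit are not given. The median slope was −0.30 log2 units per 10 days over members and 0.0049 over all genes tested, and falling members had slopes from −1.42 to −0.25.

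Among the members, a fall in males was called most often at high male levels. Of the 24 with a male median of at least 10 CPM 21 fell and 1 rose, with a median slope of −0.90. Of the 67 between 1 and 10 CPM 32 fell and 7 rose, with a median slope of −0.29, and of the 62 below 1 CPM 41 were tested, 10 fell and 1 rose. These shares were not compared by a test. Shares of all genes at the same male levels were not computed, so a dependence of the calls on counts cannot be told apart from a trait of the members.

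The most abundant gene, APZ42_001431, was at 1516, 1820 and 1869 CPM in 8-day males, at 540.8, 879.9 and 1271 CPM at 10 days, at 203.8 and 343.7 CPM at 20 days and at 131.9, 148.9 and 166.2 CPM at 40 days, and neighbouring groups in this row did not overlap. The course between them was uneven. Its lowest group was 28 days, at 39.1, 49.4 and 56.6 CPM. At 35 days it was at 107.5, 195.3 and 303.3 CPM, a range that overlapped those of 20 and 40 days. Its slope in males was −1.07 ± 0.14 (edgeR, adjusted p = 1.00e-07). APZ42_034042 was at 1262, 1393 and 1453 CPM at 8 days and at 254.8, 369.7 and 398.4 CPM at 40 days, with a slope of −0.69 ± 0.084 (edgeR, adjusted p = 4.18e-08). It too was lowest at 28 days, at 106.8, 120.7 and 122.1 CPM.

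APZ42_028735 had the same level in the youngest animals of both sexes. It was at 267.6, 281.7 and 324.3 CPM in 8-day males, within the range of the 10-day females, but at 22.2, 33.5 and 35.4 CPM in 10-day males and at 3.15, 7.13 and 7.31 CPM at 40 days. The male slope was −1.42 ± 0.16 (edgeR, adjusted p = 6.81e-09). APZ42_028343 was at 246.6, 277.7 and 304.9 CPM at 8 days, at 89.9, 173.2 and 202.2 CPM at 10 days and at 19.8, 21.9 and 31.0 CPM at 40 days, with a slope of −1.09 ± 0.10 (edgeR, adjusted p = 2.09e-10).

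The 9 members that rose in males had slopes of 0.27 to 1.26. APZ42_025176 was at 0.345, 0.670 and 0.872 CPM in 8-day males and at 1.36, 1.73 and 2.35 CPM at 40 days, without overlap and at low counts, with a slope of 0.48 ± 0.10 (edgeR, adjusted p = 2.78e-04). APZ42_010850 was at 1.72, 1.86 and 2.57 CPM at 8 days and at 1.72, 2.75 and 3.78 CPM at 40 days, groups that overlapped, with a slope of 0.40 ± 0.085 (edgeR, adjusted p = 3.98e-04).

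The earliest ages carried part of the male result. Without 8 days, over 10 to 40 days, 48 members of 133 tested fell, against 12.5% of all genes, and 6 rose, against 8.43%. Over 15 to 40 days 33 fell, against 7.72%, and 3 rose, against 5.65%. Within the smaller spike-in cluster 32 fell, against 10.5%, and 6 rose, against 9.07%.

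Set side by side, 56 members fell in both sexes, which is 41.2% of those that fell in females and 88.9% of those that fell in males. Among the 132 members tested in both sexes this is 42.4%, against 9% of all genes tested in both. A further 52 fell in females and passed in neither direction in males, 21 fell in females and were not tested in males, and 7 fell in females and rose in males. Of the 7 that rose in females 5 fell in males, 1 rose and 1 passed in neither direction.

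The slopes themselves were compared in 1 model with sex, age and their product over all 76 libraries. The 21 members without enough counts for the male fit entered this model through their female counts, so shares are given over the 132 members tested in each sex. Of these the slope was lower in males for 32, 24.2%, against 8.02% of all genes tested in each sex, and higher in males for 14, 10.6%, against 4.91% (edgeR, adjusted p under 0.05). Over everything that entered the model the shares of all genes were 7.53% and 4.54%, and 1 of the 21 members was also called higher. The counts of lower and higher slopes under alternatives are over all members that entered the model, which gave 32 and 15 in the main fit. They were 21 and 21 with spike-in library sizes, against 0.785% and 5.56% of all genes. They were 17 and 10 within the larger cluster, against 1.8% for each direction, and 17 and 4 within the smaller one, against 6.3% and 4.17%. Leaving out the libraries of 1 replicate number at a time gave 17 to 28 lower and 7 to 12 higher, the count of lower slopes being 17 without number 3 and that of higher slopes 7 without number 1 and 9 without number 3. Of the 32 members 25 fell in both sexes, 5 rose in females and fell in males, and 2 fell in males alone by the calls. Their median levels were 317.2 CPM in females and 18.6 CPM in males, against 47.5 CPM and 1.46 CPM over all members, and 9 of the 10 most abundant members were among them. Their median slope was −0.25 in females and −0.90 in males.

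APZ42_028735 had a slope lower in males by −0.94 ± 0.14 (edgeR, adjusted p = 1.09e-06), and APZ42_028343 by −0.68 ± 0.10 (edgeR, adjusted p = 1.05e-06). The 14 with a higher slope in males all fell in females, and 7 of them rose in males and 7 passed in neither direction there. The difference for APZ42_025176 was 0.77 ± 0.12 (edgeR, adjusted p = 3.36e-06), its females standing at 27.6, 29.3 and 30.5 CPM at 10 days and 6.67, 7.87 and 12.4 CPM at 80 days. APZ42_024152 was at 0.856, 1.21 and 1.57 CPM in 8-day males and at 4.21, 4.51 and 7.56 CPM at 40 days, without overlap, against 162.8, 189.0 and 207.8 CPM in females at 10 days and 108.5, 126.6 and 139.7 CPM at 80 days. Its slopes differed by 0.54 ± 0.092 (edgeR, adjusted p = 1.73e-05).

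The age ranges of the sexes differ. Over the shared span of 10 to 40 days 4 of the 153 members had a lower slope in males, against 2.77% of all genes. A higher one was called for 6 of the 153, against 4.01%. Over that span members were thus called about as often as all genes, unlike over the full age ranges. For APZ42_028735 the difference over that span was 0.28 (edgeR, adjusted p = 0.258), in the opposite direction to that over all ages.

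**Figure D4:**
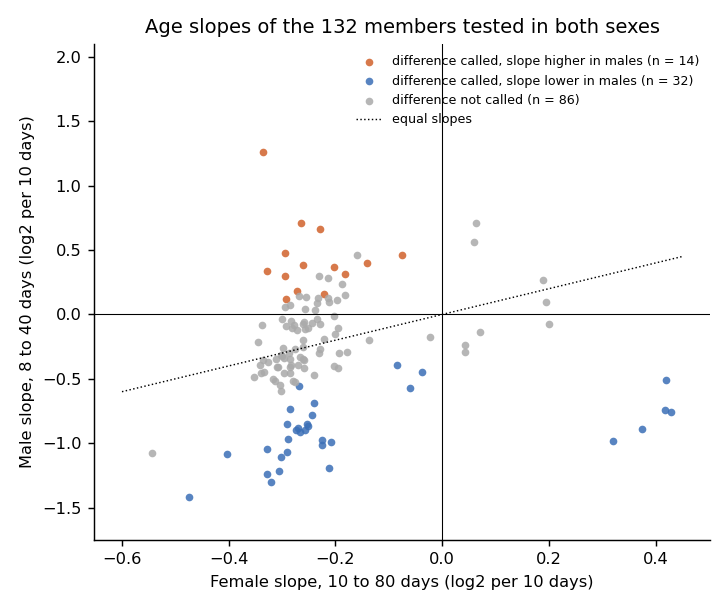
Age slope in males, 8 to 40 days (y), against that in females, 10 to 80 days (x), both in log2 units per 10 days, for the 132 members tested in both sexes, coloured by the test of the difference; the dotted line marks equal slopes. Members with a lower slope in males reach −1.42 on the male axis, and the 5 of them that rose in females lie at the lower right.

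The 15 members with a correlation below 0 to the common female course held 2 sets of 5, found after the values had been seen by linking members with a correlation of at least 0.9 in females, and 5 members outside both. The first set consisted of APZ42_006201, APZ42_007391, APZ42_007659, APZ42_016398 and APZ42_016414. Their pairwise correlations were 0.96 to 0.99 in females and 0.68 to 0.90 in males, and their ratios were 11.5 to 26.2. Since the set was picked by its course in females, its female slopes are a description.

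The summed level of the first set was extremely low at 2 female ages. It was 2.12, 3.49 and 4.08 CPM in the 15-day females and 21.8, 22.3 and 23.4 CPM in the 35-day females, whereas the other 33 female libraries ran from 68.7 CPM to 1269 CPM. Neighbouring ages were far above, with 68.7, 108.9 and 118.0 CPM at 10 days, 178.2 and 398.8 CPM at 20 days, 293.5, 298.7 and 661.4 CPM at 30 days and 342.9 and 368.2 CPM at 40 days. The highest libraries were those of 65 days, at 838.2 and 1269 CPM. All 37 male libraries, at 9.54 CPM to 108.0 CPM, were above every 15-day female, so that at this age the sex bias was turned round for all 5 genes.

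In males the first set fell in a plainer way, from 95.4, 101.8 and 108.0 CPM at 8 days over 42.1, 46.2 and 52.6 CPM at 15 days to 15.4, 19.8 and 25.4 CPM at 40 days, without overlap between these groups. All 5 members fell in males, with slopes from −0.98 to −0.51, against the 17.5% of all genes that fell, and 2 of the 5 were still called falling over 15 to 40 days. APZ42_007659 went from 9.94, 11.9 and 12.9 CPM at 8 days to 0.864, 1.32 and 1.62 CPM at 40 days, with a slope of −0.98 ± 0.089 (edgeR, adjusted p = 7.81e-11). In females all 5 had slopes of 0.32 to 0.43 and were called rising, but 0 were called with spike-in library sizes, 4 without the 15-day and 35-day groups and 2 without the 65-day and 70-day groups. Over 45 to 80 days all 5 female estimates were below 0.

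**Figure D5:**
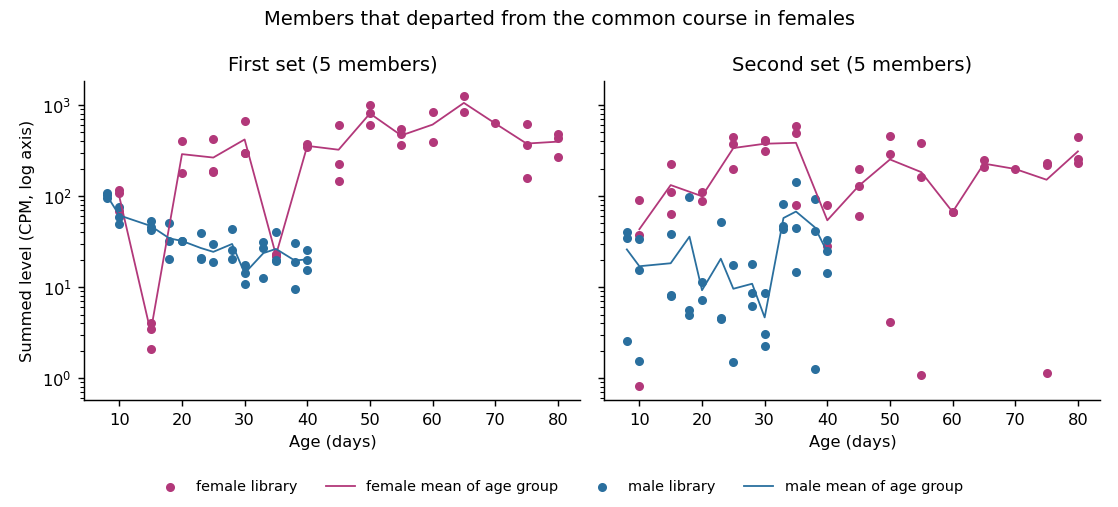
Summed level of the first and of the second set of 5 members in each library (CPM, log axis) against age in days, with points for libraries and lines through the means of age groups in each sex. The first set drops to 2.12 CPM in females at 15 days and to 21.8 CPM at 35 days, and in the second set single female libraries at 10, 50, 55 and 75 days fall to between 0.826 and 4.09 CPM.

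The second set, APZ42_017161, APZ42_021630, APZ42_021647, APZ42_030759 and APZ42_033829, varied between libraries of the same age instead. Its summed level was 0.826, 37.6 and 91.4 CPM in the 10-day females, 4.09, 291.8 and 460.7 CPM at 50 days, 1.10, 162.2 and 385.8 CPM at 55 days and 1.15, 220.3 and 231.9 CPM at 75 days. In each of these groups 1 library was at least 10-fold below the other 2. At 80 days it was 233.2, 252.6 and 441.6 CPM, and at 25 days 195.8, 373.1 and 441.0 CPM, with no such library. Pairwise correlations were 0.87 to 0.95 in females and 0.59 to 0.83 in males.

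Males showed the same kind of scatter in the second set, with 1.28, 41.7 and 93.4 CPM at 38 days and 4.98, 5.64 and 96.8 CPM at 18 days, and a range over all male libraries of 1.28 CPM to 143.0 CPM. No member of the set passed the age test in females, and 1 rose in males. The levels of the sexes overlapped in this set.

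For age, the authors' deposited table gave a negative effect at an adjusted p under 0.05 for 132 members, against 18.2% of all genes with an adjusted p, and a positive one for 7, against 24.3%. The median effect in the authors' deposited table was −0.0263 log2 units per day over members and 0.0031 over all genes, and all 153 members had the sign of the female slope found here. For the interaction of sex and age, the authors' deposited table had 34 members negative, against 9.34%, and 18 positive, against 5.92%, and 151 members had the sign of the difference found here.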

How the data were processed

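RNA was taken from whole animals of about equal dry mass, and TruSeq mRNA libraries were read as pairs of 100 bases, per the labels' protocols. The submitters' processing notes list TopHat2 2.1.1 and DESeq2 1.20. The sources used here do not give the counting tool, strand setting, genome build or annotation, and genes with a near-identical copy or an overlap have uncertain counts. The authors deposited a table of unnormalised counts for 26646 genes and 7 spike-in rows in 80 columns. Per the file headers, their tables of the age and interaction effects hold a log2 change with its p-value before and after adjustment.

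Spike-in rows, 0.318% to 2.31% of counts in females and 0.217% to 1.72% in males, entered neither the library sizes nor the tests. The 2 technical runs of 1 male sample were summed. The 3 libraries that the rule leaves out were assigned to no sex. Members, lists and tests were chosen with earlier results of these data known.

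Tests on counts used edgeR 4.0.16 under R 4.3.3 (TMM scaling, filterByExpr, quasi-likelihood fits, Benjamini-Hochberg over all genes), with age in days as a linear term within each sex and sex by age over 76 libraries. The scripts were tested on simulated counts. Levels on the log2 scale used a prior count of 2. Alternatives were another scaling, no filter, DESeq2 1.42.0, a replicate block, spike-in library sizes, subsets of libraries or ages, and omitted replicates. The genes named for a test are, per direction, the 2 called members of smallest p among those with a mean log2 CPM of at least 3 in females or 0 in males, and for levels the 2 members that lead each measure. Members of the 2 sets were named after their values were seen. No gene lists could be tested without names. Replicate numbers did not pair the libraries.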

Additional observations from a re-analysis of the deposited data

Results flagged for a closer look

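The age slopes of the sexes differed for 47 members in the model with a product of sex and age, being higher in males for 15, against 4.54% of all genes tested, and lower in males for 32, against 7.53%. Of the 15, 1 had too few counts for the male fit. With replicates omitted the counts were 7 to 12 and 17 to 28, and with spike-in library sizes both were 21. The test of the difference gave 0.77 for APZ42_025176 and 0.54 for APZ42_024152, both higher in males, and −0.68 for APZ42_028343 and −0.94 for APZ42_028735, both lower in males, in log2 units per 10 days. Males covered 8 to 40 days and females 10 to 80 days, and the part of the age range in these differences was seen only in the fit over 10 to 40 days. That fit gave 6 higher and 4 lower of the 153 members, against 4.01% and 2.77% of all genes, so about as often as all genes.

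Of the libraries left unassigned, 2 titled as males stood far above the assigned males. The library titled as the third 20-day male had 9.06% of 17556442 gene counts in the members, with 153 of them detected, and the library titled as the third 25-day male had 11.9% of 24775203. The assigned male libraries reached at most 1.00%. The genes nearly limited to females summed to 1756 CPM and 1673 CPM in these libraries, without TMM scaling.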

How the results depend on the processing

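Alternatives on the groups of 40 to 55 days and of 25 to 35 days, and those that leave out whole age groups or cover males of 15 to 40 days, were added after seeing the data. Among females, rising members numbered 0 with spike-in library sizes, 0 within the smaller spike-in cluster, 1 at 10 to 40 days, 0 at 45 to 80 days and 4 without the 65-day and 70-day groups (edgeR, with 2, 1 and 0 at an unadjusted p under 0.05 where the count is 0). Falling members numbered 1 within the smaller cluster, 35 at 10 to 40 days and 0 at 45 to 80 days, where fewer libraries and fewer ages entered. Among males, 3 rose and 33 fell at 15 to 40 days, and 32 fell within the smaller cluster. A higher slope in males was called for 4 members within the smaller cluster and 6 at 10 to 40 days, and a lower one for 21 with spike-in sizes, 17 within either cluster and 4 at 10 to 40 days. At 50 and 55 days 0 members were higher with no filter, with the replicate block, with spike-in sizes or without the abundant block (edgeR, with 4, 4, 2 and 4 at an unadjusted p under 0.05). With DESeq2 4 were higher, and shares of all genes in these fits are not given. At 30 days 87 were lower with DESeq2, 3 with the block and 4 with spike-in sizes. The cause of these changes was not tested.

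APZ42_015453 had a female slope of −0.032 at 45 to 80 days (edgeR, adjusted p = 0.944). The difference for APZ42_028735 was 0.20 within the smaller cluster (edgeR, adjusted p = 0.476) and 0.28 at 10 to 40 days (edgeR, adjusted p = 0.258). Without 1 library, falling members ranged from 133 to 136 and rising ones from 7 to 7 in females, and from 56 to 65 and from 8 to 10 in males. Without all libraries of 1 replicate number, slopes were higher in males for 7 to 12 and lower for 17 to 28. The count of higher slopes was 7 without the libraries numbered 1, and that of lower slopes 17 without those numbered 3. Without 1 library, 105 to 117 members were lower and 0 to 4 higher at 50 and 55 days, and 1 to 23 were lower at 30 days.

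With the replicate number as a block, 134 members fell and 7 rose in females, 64 fell and 9 rose in males, 29 had a lower and 16 a higher slope in males, and 110 were lower at 50 and 55 days. Shares of all genes are not given for these block fits, so the counts stand only beside the main ones. Those were 136, 7, 63, 9, 32, 15 and 118 in the same order. The numbers did not pair the libraries, since same-numbered libraries had median correlations of −0.009 to 0.020 in their deviations, and 8 of 38 female and 15 of 37 male libraries correlated best with their own number. Membership by TMM-scaled CPM gave 154 members, 144 of them shared, with 133 falling and 7 rising in females. Of the other recomputed values 253 counts and 455 single-gene values kept their side, and 14 single-gene values no longer passed. In males 21 members had too few counts to be tested.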

Other observations

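The courses of the 2 sets were shared with genes outside the members. Of 17706 genes tested, 19 had a correlation of at least 0.9 with the mean log2 course of the first set over the female libraries and 200 with that of the second, and none of either group was a member. Genes with consecutive identifiers, which may be neighbours or copies, made up 13 pairs with 24 members, 15.7% of all, and their correlation in females was −0.07 at the lowest, 0.93 at the median and 1.00 at the highest.

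The library titled as the third 20-day female, left unassigned, had 0.222% of 11624900 gene counts in the members, with 146 detected. The genes nearly limited to females summed to 3.44 CPM there, without TMM scaling. The lowest assigned female library had 2.15%.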
